A study of Rattus norvegicus with 8 samples.

Results

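The G2 and mitosis genes are a list of 40 genes whose products act between the end of DNA replication and the separation of daughter cells. The list was written from general knowledge of the cell cycle, but with earlier results of these data known. A gene was taken by its symbol in the deposited table of gene names. A row was found for 39 of the 40 genes, and all 39 passed the filter on low counts, among 13250 genes tested of 32883 genes counted. Ccnb2, the remaining gene, was not analysed here.

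The cells were primary nucleus pulposus (NP) cells, which fill the gelatinous centre of the spinal disc, isolated from adult Sprague Dawley rats and grown in serum-containing DMEM. Sirt6-KD NP cells carried a lentiviral mixture of ShSirt6 clones, and Sirt6-Ctrl NP cells carried the ShCtrl lentivirus (SIRT6KD/ShSirt6 and SIRT6Ctrl/ShCtrl in the series record), with puromycin added to the medium of both after transduction. Each group held 4 libraries (Sirt6-Ctrl S1 to S4, Sirt6-KD S5 to S8), from cultures of 4 rats in the series record. The cultures were mixed transduced populations rather than clones, they grew outside the disc, and no label ties a control library to a knockdown library from the same rat, so the groups were compared without pairing. Sirt6 itself (ENSRNOG00000006393), which encodes the targeted NAD-dependent deacetylase, fell from 52.7 ± 3.78 to 20.6 ± 1.07 CPM (mean ± SD, n = 4 in each group), a reduced but not absent transcript.

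Depth ranged from 31994838 to 40124813 reads per library. S1 and S2 stood apart from the other libraries before any comparison was made. ERCC spike-in reads, which come from RNA standards added to the sample, took 6.27% of the reads in S1 and 9.80% in S2, against 2.97% and 3.08% in S4 and S3 and 2.15% to 2.47% in the Sirt6-KD libraries. At least 10 reads were counted for 11647 genes in S2 and for 13018 to 13713 genes in the others. Of 22 NP markers 12 had a named row, among them Pax1, Foxf1, Cd24, Car3 and Krt8. Krt18, Krt19, Tbxt, Col2a1, Shh and Noto had none, so the label rests on the markers that were found. Names cover only rows whose 8 counts sum to at least 81, so a marker without a row may be low or unnamed. Pax1 stood at 48.3 to 79 CPM over the libraries, but Krt8 at 2.24 to 10.7 CPM and Car3 at 0.695 to 23.4 CPM. The 12 summed to 1180 to 2580 CPM in Sirt6-Ctrl and 3320 to 4280 CPM in Sirt6-KD. Slc2a1 alone held 554 to 2070 CPM of this in Sirt6-Ctrl and 2650 to 3610 CPM in Sirt6-KD. The median log2 fold change of the 12, knockdown over control, was -0.34, with 5 positive and 7 negative. Of the 12, Ncam1 and Slc2a1 were called higher and Krt8 and Car3 lower in Sirt6-KD, beside 8.02% and 10.7% of all genes. Leukocyte markers, of which 3 of 12 had a named row, summed to at most 29.7 CPM in any library, mostly Cd14. Tek, the 1 endothelial marker with a named row, stood at no more than 0.592 CPM. Fibroblast and annulus fibrosus markers, mainly Col1a1, summed to 14800 to 27700 CPM in Sirt6-Ctrl and 8850 to 18600 CPM in Sirt6-KD. Of the 10 with a row, 3 (Col3a1, Dcn and Scx) were called lower, beside 10.7% of all genes.

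In a dividing cell the genes for mitosis are transcribed late, from the end of S phase to mitosis, and are held silent in cells that have left the cycle. Cyclin B and cyclin A activate CDK1 to start mitosis, the kinetochore and spindle checkpoint hold the cell until every chromosome is attached, the anaphase-promoting complex then destroys cyclin B and securin, and the midzone and contractile ring split the cell. Because these transcripts are made in cycling cells, their summed level is widely read as a sign of proliferation. In bulk RNA, fewer cycling cells and less of each transcript per cycling cell cannot be told apart.

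The promoters of these genes are known for short shared elements, and stretches of some are shown here because the members are described together and share more than their function. The CHR (cell cycle genes homology region), TTTGAA or in a minor form TTCGAA, is bound by the DREAM and MuvB complexes, and the CCAAT box is bound by NF-Y. Each line gives the 120 bases before the annotated start of the gene, 5′ to 3′ on the strand of the gene, from RefSeq on the GRCr8 build, with CHR and CCAAT matches in capitals. A match on the opposite strand reads TTCAAA or ATTGG, and in Mki67 the second CHR and a CCAAT box overlap.
Mki67 (chr1:199952594-199952713, minus strand): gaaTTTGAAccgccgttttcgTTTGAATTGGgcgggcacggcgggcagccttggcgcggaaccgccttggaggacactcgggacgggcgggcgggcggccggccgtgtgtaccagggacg
Hmmr (chr10:25665216-25665335, minus strand): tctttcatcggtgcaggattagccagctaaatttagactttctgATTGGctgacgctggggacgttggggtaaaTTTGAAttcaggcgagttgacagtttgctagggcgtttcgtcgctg
Anln (chr8:29197514-29197633, minus strand): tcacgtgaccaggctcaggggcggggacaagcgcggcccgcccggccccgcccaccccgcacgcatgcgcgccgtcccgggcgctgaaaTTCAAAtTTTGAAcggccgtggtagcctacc
Cenpf (chr13:103760887-103761006, minus strand): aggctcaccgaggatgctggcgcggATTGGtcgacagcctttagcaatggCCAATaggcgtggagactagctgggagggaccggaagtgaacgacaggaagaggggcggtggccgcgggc
Cdk1 (chr20:19265173-19265292, plus strand): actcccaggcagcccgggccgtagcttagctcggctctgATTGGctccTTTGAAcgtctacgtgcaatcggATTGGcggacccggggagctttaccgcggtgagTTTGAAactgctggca
Aspm (chr13:53625464-53625583, plus strand): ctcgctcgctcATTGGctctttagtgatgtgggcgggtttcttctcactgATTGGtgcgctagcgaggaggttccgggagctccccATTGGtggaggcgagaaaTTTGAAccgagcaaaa
Kif23 (chr8:71320585-71320704, minus strand): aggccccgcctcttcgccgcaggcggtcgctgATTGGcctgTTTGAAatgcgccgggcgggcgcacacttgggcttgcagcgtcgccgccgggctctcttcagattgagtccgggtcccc
Cdc20 (chr5:137255800-137255919, minus strand): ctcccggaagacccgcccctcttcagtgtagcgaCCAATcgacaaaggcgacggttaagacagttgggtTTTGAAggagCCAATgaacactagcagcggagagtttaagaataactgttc
Bub1 (chr3:135504922-135505041, minus strand): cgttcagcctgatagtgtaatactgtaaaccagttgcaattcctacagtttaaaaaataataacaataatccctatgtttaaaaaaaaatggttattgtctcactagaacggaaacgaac

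Mki67, Hmmr, Anln and Cenpf are the 4 members called higher in Sirt6-KD. Cdk1, Aspm and Kif23 are shown for the genes whose control libraries differed, Cdc20 for a member whose Sirt6-KD libraries lay within the control range, and Bub1 for a window without a match. The first base of the CHR closest to the start lay 99 bases before it in Mki67, 46 in Hmmr, 24 in Anln, 16 in Cdk1 and Aspm, 79 in Kif23 and 51 in Cdc20. Cenpf held CCAAT boxes and no CHR. A promoter window was given for 34 of the 40 members, in 35 windows since Kif2c had 2, and not for Ccna2, Aurkb, Foxm1, Racgap1, Tpx2 and Ube2c. Within 250 bases before the start, on either strand, 18 of the 35 windows (51.4%) held a CHR of either form, against 17.4% of all 33469 windows. A CCAAT box stood in 26 (74.3%, against 34.0% of all windows), and 2 or more in 19 (54.3%, against 9.42%). Both elements stood in 16 windows (45.7%, against 6.31%). These are letter matches and describe the windows.

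Most members stood higher in Sirt6-KD than in Sirt6-Ctrl NP cells, but few by more than the control libraries differed among themselves. The log2 fold change, knockdown over control, was positive for 36 of 39 members, where 49.1% of all genes were positive, and its median was 0.98 (range -0.57 to 2.16), beside -0.02 over all genes. At an adjusted p below 0.05 (edgeR's quasi-likelihood test, Benjamini-Hochberg adjustment over all rows tested) and a fold change above 1.5, 4 members were called higher (10.3%), in a table where 8.02% of all genes were called higher. None of the 39 was called lower by edgeR, where 10.7% of all genes were, and 0 were lower at an unadjusted p under 0.05 (20.4% of all genes). DESeq2 and limma-voom also called 0 members lower (9.24% and 9.88% of all genes). At an unadjusted p under 0.05, 9 members were higher (16.1% of all genes). Every Sirt6-KD library exceeded every control library for 11 members (14.8% of all genes), and the reverse held for 0 (15.6%). Members had a median standard error of 0.56 for this fold change, and all genes 0.27.

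The control libraries differed among themselves far more than the knockdown libraries did. The SD of log2 CPM over the 4 libraries had a median of 1.21 among members in Sirt6-Ctrl and 0.23 in Sirt6-KD, while over all genes it was 0.44 and 0.20. It was larger in Sirt6-Ctrl for 39 of 39 members, and for 85.9% of all genes. Summed over the 39 members, the level was 180, 217, 366 and 500 CPM in S1 to S4, and 622, 606, 583 and 634 CPM in S5 to S8. Thus S1 and S2 lay lowest, S3 between, and S4 nearest to the Sirt6-KD libraries, which lay close together. Relative to the Sirt6-KD mean of each gene, the median member differed on the log2 scale by -1.77, -1.75, -0.91 and 0.04 in S1 to S4, where the median of all genes differed by -0.01, -0.05, 0.00 and 0.02. The libraries with the lowest member levels, S1 and S2, were those with the highest share of spike-in reads, and the part of that share in the member levels was not tested. Smooth muscle and pericyte markers, of which 7 of 8 had a row and none was called, summed to 619, 933, 1010 and 3040 CPM in S1 to S4 and 1120 to 2540 CPM in Sirt6-KD, the same order over the controls, and their part was not tested either.

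**Figure D1:**
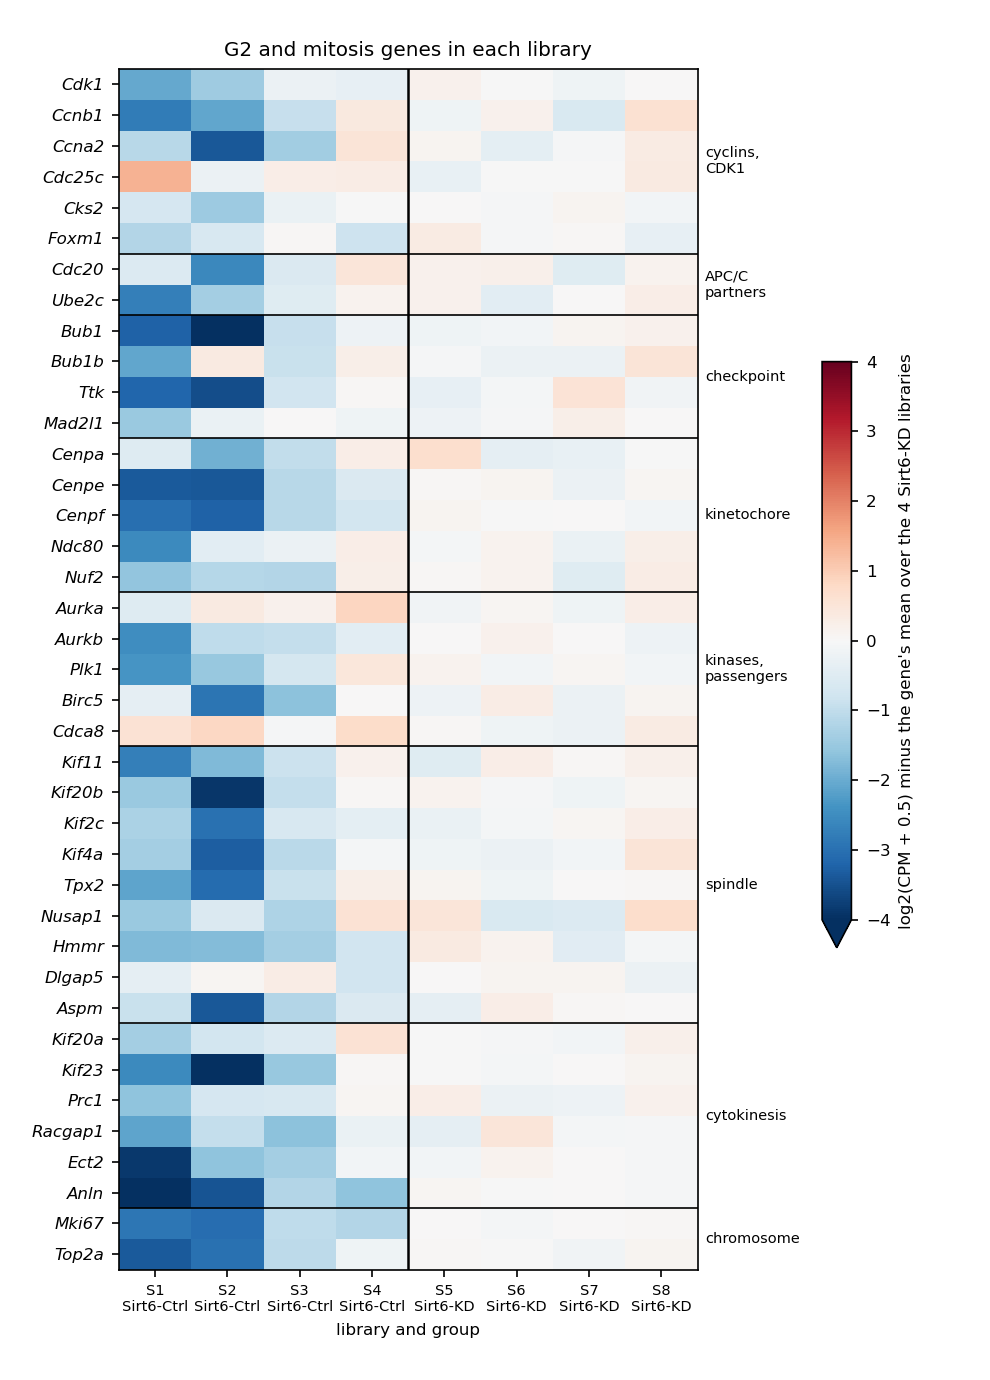
Difference of log2(CPM + 0.5) from the Sirt6-KD mean of each gene, for 39 members (rows, by role) in 8 libraries (columns), with blue below and red above that mean. S1 and S2 are blue for most members, S3 is paler, and S4 resembles S5 to S8, with medians of -1.77, -1.75, -0.91 and 0.04 in S1 to S4.

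The order of the controls recurred through the list. S4 was the highest control library for 30 members (21.3% of all genes), S3 for 6, S2 for Bub1b and Cdca8, and S1 for Cdc25c. S1 was the lowest for 20 members (20.1% of all genes) and S2 for 17 (33.3%). Both S1 and S2 lay below S3 and S4 for 25 members (23.7% of all genes), and both lay below every Sirt6-KD library for 33 (29.9%). Taken singly, S1 lay below every Sirt6-KD library for 37 members (39.6% of all genes), S2 for 33 (43%), S3 for 32 (30.8%) and S4 for 13 (36.2%). S4 lay above every Sirt6-KD library for 8 members, Ccna2, Cdc20, Ndc80, Aurka, Plk1, Cdca8, Tpx2 and Kif20a (36.1% of all genes). Leaving out the highest control of a member raises its fold change by itself. Calls gained below without S4, or without S3 for Cdk1, therefore show dependence on that library and are no added support for a difference.

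S2 differed from S1 in which members were low. At most 10 reads were counted in S2 for 9 members (14.2% of all genes), namely Bub1, Ttk, Cenpa, Birc5, Kif20b, Kif2c, Kif4a, Aspm and Kif23, but in S1 for Ttk alone (6.11%) and in S3 and S4 for none (3.49% and 3.11%). In the same library S2, Bub1b had 242 reads, Mad2l1 302 and Cdca8 588. Thus S2 held near-empty and well-covered members side by side, whereas S1 had over 10 reads for every member but Ttk and a member median of 3.13 CPM, beside 8.52 to 11.5 CPM in Sirt6-KD.

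**Figure D2:**
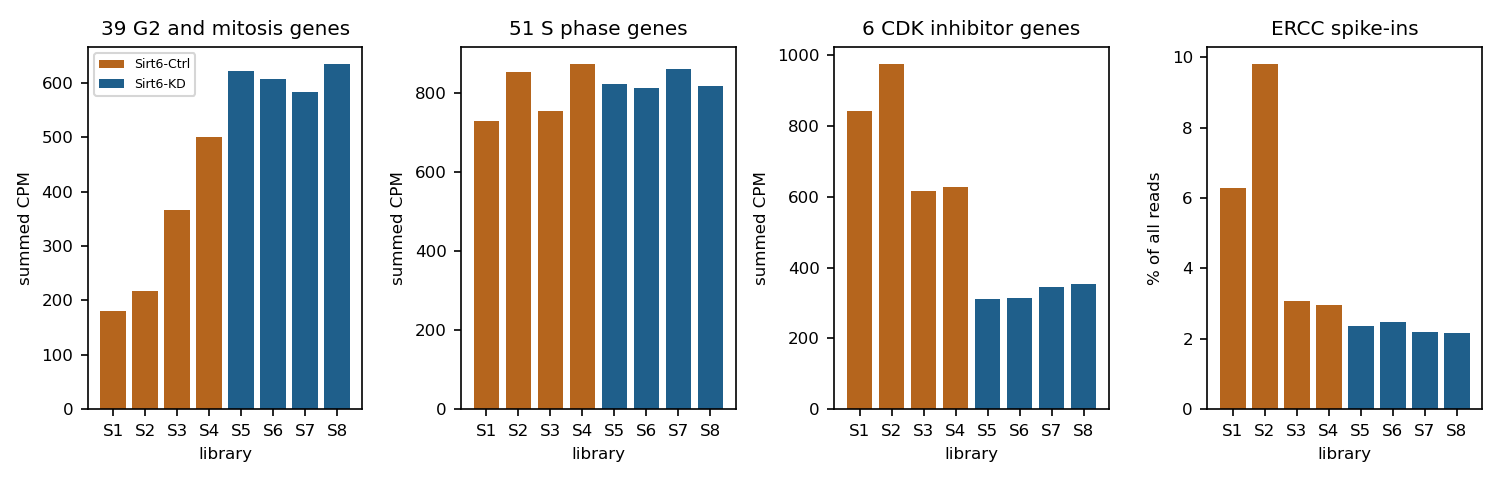
Summed TMM-normalized CPM of the 39 members, 51 S phase genes and 6 cyclin-dependent kinase inhibitors, and the percentage of reads from ERCC spike-ins, as bars for each of the 8 libraries (Sirt6-Ctrl orange, Sirt6-KD blue). The members sum to 180, 217, 366 and 500 CPM in S1 to S4 and lie between 583 and 634 CPM in the Sirt6-KD libraries.

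The 2 chromosome structure genes had a median log2 fold change of 1.58, and 1 was called higher by edgeR, beside 8.02% of all genes. Mki67 (ENSRNOG00000028137), which encodes the Ki-67 protein that coats mitotic chromosomes and is a standard proliferation marker, stood at 5.34, 4.73, 21.0 and 18.7 CPM in S1 to S4 and at 43.4, 40.9, 43.0 and 44.4 CPM in S5 to S8. The groups did not overlap, and the lowest Sirt6-KD library was well above S3, the highest control. The mean rose from 12.4 ± 8.6 to 42.9 ± 1.47 CPM (log2 fold change 1.79, SE 0.45, adjusted p = 0.0199 by edgeR). Without S1 the adjusted p was 0.0531, and without S5, S6 or S7 it was 0.0527 to 0.0537, so the call was lost with each of these. Without both S1 and S2 the fold change was smaller, 1.12 on the log2 scale, and the adjusted p was 0.00362. Top2a, the topoisomerase that untangles sister chromatids, stood at 2.56, 3.46, 14.5 and 27.1 CPM in S1 to S4 and at 31.9, 30.1, 28.1 and 33.4 CPM in S5 to S8. Its groups did not overlap either, though S4 lay close to S7, and it was not called (1.37, SE 0.61, adjusted p = 0.131 by edgeR), while without S4 the adjusted p was 0.0236 (2.17).

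Of the 6 members of the midzone and cytokinesis group, 1 was called higher by edgeR (8.02% of all genes), and the group median was 1.23. Anln (ENSRNOG00000014343), which encodes anillin, the scaffold of the contractile ring, had the largest log2 fold change among the members. It stood at 3.82, 7.33, 37.5 and 27.7 CPM in S1 to S4 and at 89.8, 84.0, 85.9 and 82.4 CPM in S5 to S8. Every Sirt6-KD library lay above S3, the highest control, and the controls themselves spanned a 9.82-fold range. The mean rose from 19.1 ± 16.2 to 85.5 ± 3.19 CPM (2.16, SE 0.58, adjusted p = 0.0247 by edgeR). The call was lost on leaving out any 1 Sirt6-KD library (adjusted p = 0.0523 to 0.0612 by edgeR) and was kept without each control library. The span of Anln overlaps that of Matcap2 in the GRCr8 annotation, while the processing notes name the Rnor_6.0 build. Reads in a shared stretch cannot be told apart if strand was not used in counting, and whether exons overlap was not tested.

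The other midzone genes were not called by edgeR with all 8 libraries, whereas limma-voom called Kif23, Racgap1 and Ect2 higher and DESeq2 called Racgap1 higher. Kif23, a motor of the centralspindlin complex, had the widest control range of any member whose control libraries all had more than 3 reads, from 0.216 CPM in S2 through 2.10 in S1 and 4.80 in S3 to 15.2 CPM in S4. Its Sirt6-KD libraries held 13.6 to 15.8 CPM, so S4 alone of the controls lay at their level (1.38, SE 0.82, adjusted p = 0.252 by edgeR; without S4 2.62, adjusted p = 0.0348). Racgap1, the partner of Kif23 in that complex, stood at 3.13, 7.58, 4.50 and 12.4 CPM in S1 to S4 and 11.7, 21.5, 14.4 and 14.6 CPM in S5 to S8, with S4 above S5. Ect2, the exchange factor that activates RhoA at the cleavage site, stood at 0.575, 4.55, 5.48 and 13.9 CPM in S1 to S4 and at 13.9 to 16.5 CPM in Sirt6-KD. For Racgap1 the fold change was 1.17 (SE 0.41, adjusted p = 0.0645 by edgeR) and for Ect2 1.28 (SE 0.65, adjusted p = 0.180), and both were called without S4 (1.61, adjusted p = 0.0180, and 2.08, adjusted p = 0.0381). Prc1, which bundles midzone microtubules, ranged from 9.74 CPM in S1 to 32.9 in S4 and from 25.9 to 37.5 CPM in Sirt6-KD (0.62, SE 0.32). Kif20a, the motor that carries the passenger complex to the midzone, was highest of all libraries in S4, at 20.3 CPM, with 4.88 to 8.95 CPM in S1 to S3 and 12.3 to 15.6 CPM in Sirt6-KD (0.36, SE 0.39). Without S4, the highest control for both, Prc1 (0.95, adjusted p = 0.0400 by edgeR) and Kif20a (0.90, adjusted p = 0.0489) were called as well.

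**Figure D3:**
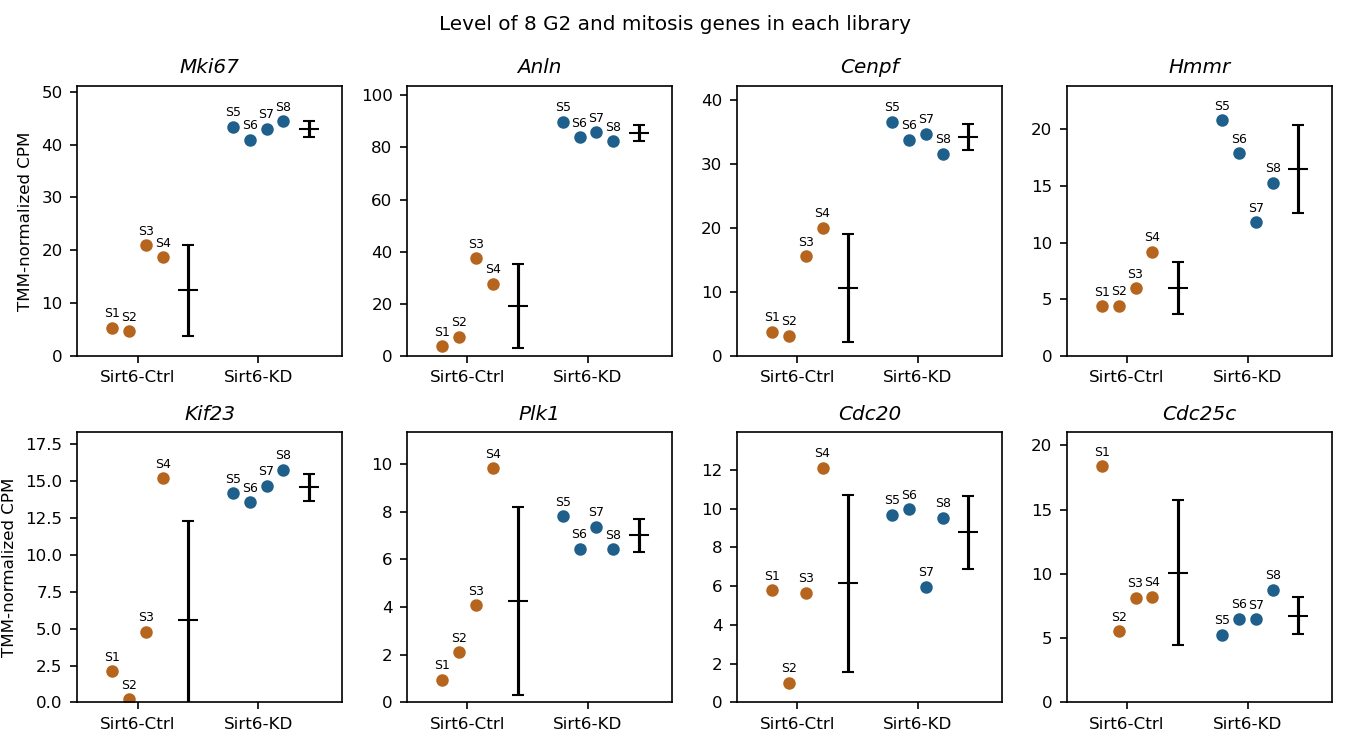
TMM-normalized CPM of selected members in each library, with a point per library and the group mean with its SD over 4 libraries, on axes that start at 0. Sirt6-KD points lie close together, whereas the control points spread, as for Mki67 from 4.73 to 21.0 CPM and for Kif23 from 0.216 to 15.2 CPM.

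Among 9 spindle motors and microtubule-binding proteins, 1 was called higher by edgeR (8.02% of all genes), and the group median was 1.11. Hmmr (ENSRNOG00000059894), which encodes a centrosome and spindle protein that also binds hyaluronan, stood at 4.37, 4.42, 5.98 and 9.19 CPM in S1 to S4 and at 20.8, 17.9, 11.8 and 15.3 CPM in S5 to S8. Its control libraries spanned a 2.10-fold range, among the narrowest of the list, and the lowest Sirt6-KD library, S7, lay above S4. The mean rose from 5.99 ± 2.26 to 16.5 ± 3.85 CPM (1.46, SE 0.31, adjusted p = 0.0112 by edgeR). Hmmr was called in each of the 8 fits that left out 1 library (adjusted p = 0.00767 to 0.0445 by edgeR) and without S1 and S2 (1.13, adjusted p = 0.0356). Aspm, which focuses spindle poles, stood at 4.08, 0.309, 3.27 and 5.19 CPM in S1 to S4 and at 6.16, 9.80, 8.32 and 7.99 CPM in S5 to S8. The groups of Aspm did not overlap, but among the fits leaving out 1 library it was called only without S2 (0.96, adjusted p = 0.0376 by edgeR, against 1.33, SE 0.63, adjusted p = 0.152 with all libraries).

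Among the motor genes of the same group, Kif20b, Kif2c and Kif4a were lowest in S2. Kif20b, a motor of late cytokinesis, had 0.0619 CPM in S2, which is under 3 reads, against 2.44, 3.74 and 8.12 CPM in S1, S3 and S4 and 6.83 to 8.54 CPM in Sirt6-KD. Kif2c, the microtubule depolymerase at centromeres, stood at 1.67, 0.155, 2.86 and 3.51 CPM in S1 to S4 and at 3.85 to 5.80 CPM in Sirt6-KD, without overlap. Kif4a, a chromosome-bound motor, stood at 1.98, 0.155, 2.56 and 5.55 CPM in S1 to S4 and at 4.93 to 8.70 CPM in Sirt6-KD. These 3 motors had log2 fold changes of 1.11, 1.22 and 1.24 with standard errors of 0.70 to 0.83, and edgeR called none of them with any 1 library left out. Kif11, the motor that pushes spindle poles apart, ranged from 1.26 CPM in S1 to 12.7 in S4 and from 7.84 to 13.7 CPM in Sirt6-KD (1.01, SE 0.57), and Tpx2, the activator of Aurora A on the spindle, from 1.55 CPM in S2 to 19.6 in S4 and from 14.7 to 18.1 CPM in Sirt6-KD (1, SE 0.60). Both were called without S4 (1.76, adjusted p = 0.0355, and 1.86, adjusted p = 0.0310 by edgeR). Nusap1, a spindle-stabilizing protein, ranged from 2.07 to 10.3 CPM in Sirt6-Ctrl and from 4.27 to 11.3 CPM in Sirt6-KD (0.61, SE 0.55). Dlgap5, a kinetochore-fibre protein, did not follow the order of the other controls, with 39.4, 54.0, 62.9 and 29.6 CPM in S1 to S4 and 43.0 to 55.0 CPM in Sirt6-KD (0.14, SE 0.22, adjusted p = 0.694 by edgeR), and S4 was its lowest library.

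Of 5 centromere and kinetochore genes 1 was called higher by edgeR, where 8.02% of all genes were, and the group median was 0.88. DESeq2 and limma-voom called Cenpf and Cenpe. Cenpf (ENSRNOG00000003388), an outer kinetochore protein that accumulates in G2, stood at 3.76, 3.15, 15.6 and 20 CPM in S1 to S4 and at 36.6, 33.8, 34.7 and 31.6 CPM in S5 to S8. The groups did not overlap, and S3 and S4 lay between S1 and S2 on one side and Sirt6-KD on the other. The mean rose from 10.6 ± 8.49 to 34.2 ± 2.07 CPM (1.68, SE 0.52, adjusted p = 0.0433 by edgeR). The call was lost without S1 (adjusted p = 0.0967 by edgeR) and without each of S5 to S8 (adjusted p = 0.0809 to 0.0969), and it held without S1 and S2 together, where the fold change was 0.95 (adjusted p = 0.0101). Cenpe, the kinetochore motor that moves chromosomes to the spindle equator, stood at 1.15, 1.11, 7.33 and 10.9 CPM in S1 to S4 and at 17, 17.8, 13.9 and 17.3 CPM in S5 to S8, again without overlap. Its fold change equalled that of Cenpf but with a larger error (1.68, SE 0.65, adjusted p = 0.0893 by edgeR), and it was called without S4 (2.36, adjusted p = 0.0319) and without S1 and S2 (0.86, adjusted p = 0.0374). Ndc80 and Nuf2, partners in the complex that grips microtubules, ranged in Sirt6-Ctrl from 0.948 to 9.87 CPM and from 2.5 to 10.1 CPM, with S4 highest in both. In Sirt6-KD they ranged from 6.54 to 9.41 CPM and from 5.92 to 10.5 CPM. Neither was called with all libraries (0.47, SE 0.54, and 0.81, SE 0.45), while Nuf2 was called without S4 (1.44, adjusted p = 0.0230 by edgeR). Cenpa, the centromeric histone H3 variant, was low throughout, at 0.0928 to 2.23 CPM in Sirt6-Ctrl and 1.25 to 3.10 CPM in Sirt6-KD (0.88, SE 0.83).

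None of the 4 spindle assembly checkpoint genes was called by edgeR, and their group median was 0.88. Bub1, the kinase that recruits the checkpoint to kinetochores, stood at 1.09, 0.309, 7.39 and 12.4 CPM in S1 to S4 and at 12.6, 13.4, 15.4 and 16.3 CPM in S5 to S8. The groups did not overlap, yet S4 lay just below S5 while S2 had 10 reads, and the error was large (1.44, SE 0.82, adjusted p = 0.228 by edgeR). With limma-voom it was called higher (2.44, adjusted p = 0.0363). Ttk, the MPS1 kinase at the top of the checkpoint, had 5 and 0 reads in S1 and S2 and 100 and 228 reads in S3 and S4. In Sirt6-KD it had 144 to 309 reads, so that S4 lay within the range of the knockdown libraries and S3 below it (1.35, SE 1.13). Bub1b and Mad2l1 are components of the mitotic checkpoint complex. Bub1b did not share that order and stood at 0.977, 7.48, 2.86 and 6.76 CPM in S1 to S4 and at 4.75 to 8.37 CPM in Sirt6-KD, with S2 the highest control (0.37, SE 0.56). Mad2l1 stood at 3.71, 9.34, 11.4 and 9.91 CPM in S1 to S4 and at 9.87 to 13.3 CPM in Sirt6-KD (0.40, SE 0.33), with S1 and S2 below every other library.

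The cyclins, CDK1 and their regulators gave a median of 0.73 over 6 genes, and edgeR called none with all 8 libraries. Cdk1, the kinase that drives entry into mitosis, stood at 5.26, 8.41, 19.7 and 18.5 CPM in S1 to S4 and at 26.5, 23.0, 20.9 and 23.5 CPM in S5 to S8. Its groups did not overlap, but S3 lay close to S7 (0.85, SE 0.37, adjusted p = 0.125 by edgeR), and it was called without S3 (1.13, adjusted p = 0.0493). Ccnb1, which encodes cyclin B1, stood at 0.891, 1.79, 4.68 and 12.3 CPM in S1 to S4 and at 8.07, 10.5, 5.89 and 14.5 CPM in S5 to S8. S4 thus lay within the Sirt6-KD range and the other controls below it (0.98, SE 0.68, adjusted p = 0.328 by edgeR; without S4 1.98, adjusted p = 0.0402). Ccna2, which encodes cyclin A2, stood at 3.65, 0.340, 2.88 and 12.3 CPM in S1 to S4 and at 6.33 to 10.6 CPM in Sirt6-KD, with S4 above every knockdown library (0.82, SE 0.74). Cks2, a small CDK-binding subunit, ranged from 4.76 to 13.5 CPM in Sirt6-Ctrl and from 12.8 to 14.9 CPM in Sirt6-KD (0.53, SE 0.31). Foxm1, the transcription factor that activates many of these genes, stood at 3.13, 4.73, 8.04 and 4.07 CPM in S1 to S4 and at 9.75, 7.47, 7.93 and 5.98 CPM in S5 to S8, and overlapped through S3 (0.64, SE 0.36). Cdc25c, the phosphatase that activates CDK1, was highest in S1, at 18.4 CPM, with 5.54 to 8.22 CPM in S2 to S4 and 5.27 to 8.76 CPM in Sirt6-KD, and was 1 of 3 members with a negative fold change (-0.57, SE 0.38, adjusted p = 0.305 by edgeR). Cdc25c overlaps Slbpl, and Foxm1 overlaps Tex52, in the GRCr8 annotation.

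The mitotic kinases and the chromosomal passenger complex, 5 genes with a median of 0.72, differed among themselves. Aurkb, the catalytic subunit of the passenger complex, stood at 1.81, 5.78, 6.12 and 9.07 CPM in S1 to S4 and at 12.6, 13.9, 12.4 and 10.7 CPM in S5 to S8. Its groups did not overlap (1.12, SE 0.41, adjusted p = 0.0743 by edgeR), and it was called without S4 (1.43, adjusted p = 0.0386). Birc5, the survivin subunit of that complex, stood at 3.16, 0.124, 1 and 4.24 CPM in S1 to S4 and at 3.49 to 5.32 CPM in Sirt6-KD (0.99, SE 0.78). Cdca8, the borealin subunit of the same complex, was higher in 3 of the 4 controls than in every knockdown library, at 15.1, 18.2, 9.66 and 16.9 CPM in S1 to S4 and 10.3, 8.87, 8.52 and 12.8 CPM in S5 to S8. It was not called with all libraries (-0.56, SE 0.26, adjusted p = 0.141 by edgeR), but without S3 it was called lower (-0.73, adjusted p = 0.0403), as were 14.1% of all genes. The estimates for Aurkb, Birc5 and Cdca8, subunits of a single complex, differed in sign, but edgeR called none of them with all libraries. Plk1, the kinase of mitotic entry and cytokinesis, stood at 0.948, 2.10, 4.09 and 9.82 CPM in S1 to S4 and at 6.42 to 7.81 CPM in Sirt6-KD, with S4 above every knockdown library (0.72, SE 0.59). Aurka, the centrosomal Aurora kinase, was likewise highest in S4, at 12 CPM, with 4.31 to 8.20 CPM in S1 to S3 and 5.58 to 7.61 CPM in Sirt6-KD (-0.31, SE 0.34, adjusted p = 0.552 by edgeR).

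Cdc20, the activator of the anaphase-promoting complex, and Ube2c, its ubiquitin-conjugating enzyme, were not called by edgeR, DESeq2 or limma-voom. Cdc20 stood at 5.78, 1.02, 5.65 and 12.1 CPM in S1 to S4 and at 9.67, 9.95, 5.97 and 9.53 CPM in S5 to S8, inside the control range (0.51, SE 0.56, adjusted p = 0.551 by edgeR). Ube2c stood at 0.546, 2.23, 4.44 and 7.22 CPM in S1 to S4 and at 4.66 to 7.93 CPM in Sirt6-KD (0.86, SE 0.62).

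**Figure D4:**
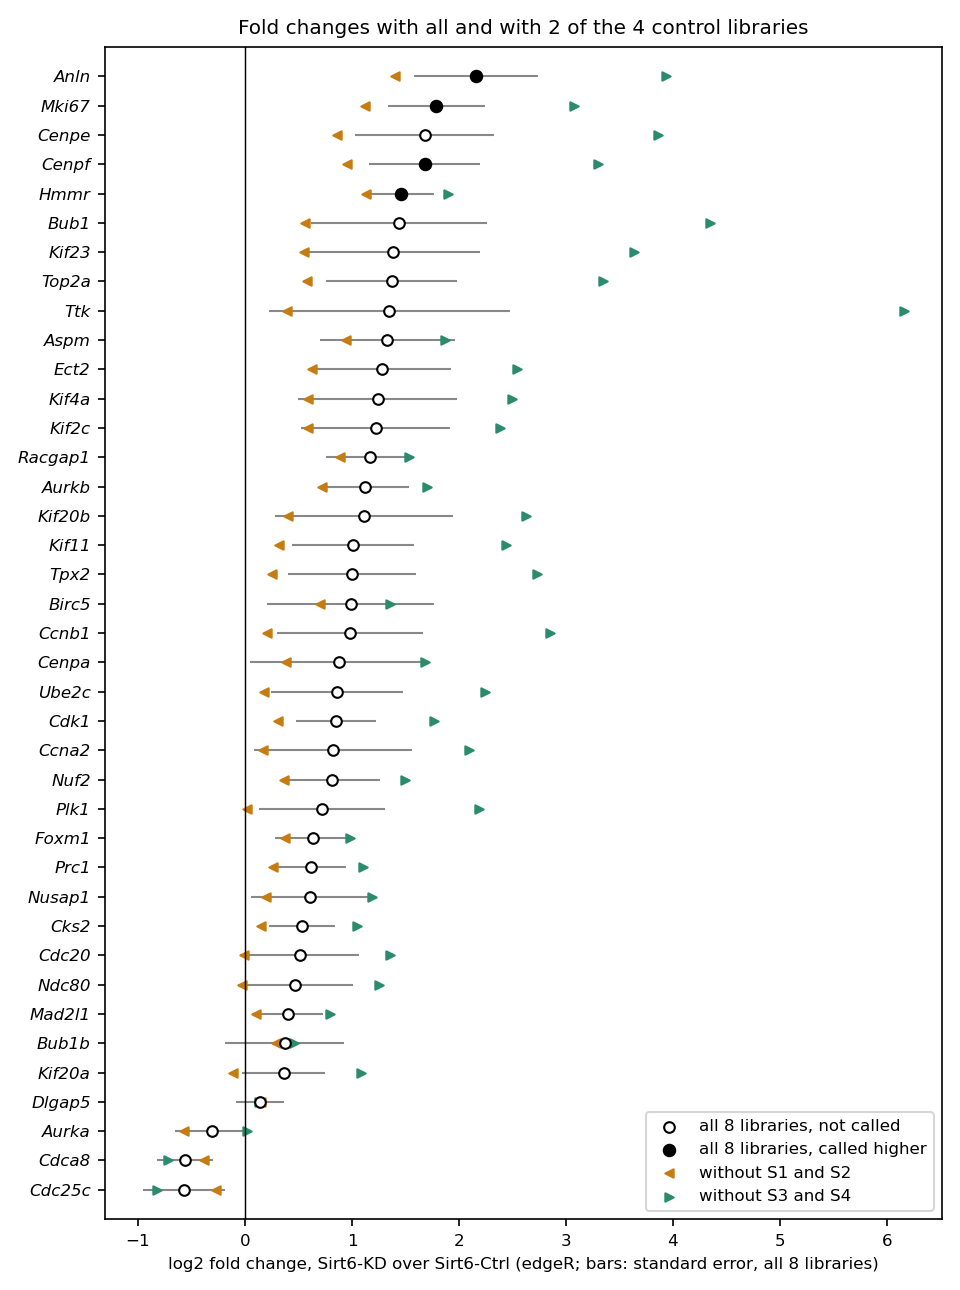
Log2 fold change (knockdown over control) for 39 members with all 8 libraries (with the standard error of edgeR's fit), without S1 and S2, and without S3 and S4. The median over the members is 0.98 with all libraries, 0.36 without S1 and S2, and 1.87 without S3 and S4, where the Ttk value rests on controls with 5 and 0 reads and is no measure of size. Filled circles are the 4 members called higher.

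The size of the difference depended on which controls it was taken against. S1 and S2 had the lowest member sums, so a larger median against them than against S3 and S4 follows from the split itself. Against S3 and S4 alone the median log2 fold change of the members was 0.36, and 5 members were called higher by edgeR (the same 4 and Cenpe, where 5.71% of all genes were called higher). Against S1 and S2 alone it was 1.87, and 24 members were called higher (17.6% of all genes). Leaving out single libraries moved the count between 1 and 16. It was 16 without S4 (8.09% of all genes), and 5 without S2 (8.55%) and without S3 (12.5%). S4 was the highest control for 30 members, so larger fold changes without it follow from leaving it out. It was 2 without S1 (4.06%) and without S8 (5.42%), and 1, Hmmr, without S5 (3.61%), S6 (3.28%) or S7 (3.52%). DESeq2 called 7 members higher (8.56% of all genes), adding Cenpe, Aurkb and Racgap1. limma-voom called 11 (12%), adding these and Bub1, Kif23, Ect2 and Top2a. With libraries scaled by their spike-in reads, the median of all genes moved to 0.94, that of the members to 1.54, and edgeR called 0 members higher, where 0.151% of all genes were called.

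Other genes of G2 and mitosis, from a longer list of which 71 were tested, had a median log2 fold change of 0.58, and 60 were positive. Relative to the Sirt6-KD mean their median was -1.17, -0.99, -0.49 and -0.02 in S1 to S4, the same order of controls as in the members, though with smaller differences. Of these, 5 were called higher by edgeR, beside 8.02% of all genes. Ccnf, the cyclin F subunit of an SCF ubiquitin ligase, rose from 8.14 ± 3.57 to 22.0 ± 1.71 CPM (1.43, adjusted p = 0.0115 by edgeR), and Wee1, the kinase that restrains CDK1, from 9.23 ± 3.06 to 17.2 ± 1.74 CPM (0.90, adjusted p = 0.0370). The others were Lmnb1, which encodes lamin B1 (0.99), Ncapd2, a condensin subunit (0.61), and Stmn1, which encodes the microtubule-destabilizing protein stathmin (0.68). A further 2 were called lower, beside 10.7% of all genes. Zwint, a kinetochore protein, fell from 120 ± 26.9 to 55.2 ± 12.2 CPM (-1.12, adjusted p = 0.00619 by edgeR), and Gtse1, which binds microtubules and p53, from 24.8 ± 3.94 to 12 ± 2.35 CPM (-1.04, adjusted p = 0.00927). Zwint was highest in S1, at 158 CPM, where most members were low.

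The 17 genes of the anaphase-promoting complex were its subunits with Fzr1, a coactivator, Fbxo5, an inhibitor, and Ube2s, a ubiquitin-conjugating enzyme. Of these, 1 was called higher by edgeR (Cdc23, 0.63, whose span overlaps Kif20a), beside 8.02% of all genes. A further 3 were called lower (Anapc2 -0.61, Anapc11 -0.83 and Cdc26 -0.72), beside 10.7% of all genes. The 17 genes had a median of -0.40. In S1 to S4 their median stood 0.44, 0.61, 0.15 and 0.38 above the Sirt6-KD mean, which is not the order of the members. Among 24 regulators of the transcription of G2 and mitosis genes, 2 were called higher and 0 lower, beside 8.02% and 10.7% of all genes. Mybl1, a MYB-family transcription factor, rose from 28.1 ± 11.1 to 64.8 ± 9.32 CPM (1.2, adjusted p = 0.0130 by edgeR), with 16.1, 21.9, 34.2 and 40.3 CPM in S1 to S4. Rb1, the retinoblastoma protein, rose from 15.3 ± 7.34 to 34.8 ± 2.81 CPM (1.18, adjusted p = 0.0254). The controls of Mybl1 thus followed the order seen in the members.

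S phase genes were mixed, and neither their sum nor their median followed that order, though single S phase genes did. Their summed level, in which abundant genes weigh most, was 729, 852, 755 and 872 CPM in S1 to S4 and 812 to 860 CPM in Sirt6-KD. Relative to the Sirt6-KD mean their median on the log2 scale was -0.49, 0.04, -0.15 and 0.17 in S1 to S4. The median log2 fold change of the 51 genes tested was 0.08. Of these, 3 were called higher (Mcm2 0.61, Lig1 0.93 and Msh6 1.13) and 5 lower (Slbp -1.02, Gins2 -0.82, Rfc2 -0.83, Fen1 -0.95 and Rfc5 -1.07) by edgeR, beside 8.02% and 10.7% of all genes. Both S1 and S2 lay below S3 and S4 for 16 of the 51 S phase genes, beside 23.7% of all genes. The same held for 36 of the 71 other G2 and mitosis genes and for 25 of the 39 members. The cyclin-dependent kinase inhibitors, which hold cells out of the cycle, had a summed level, carried mostly by Cdkn1a, of 842 and 975 CPM in S1 and S2, 616 and 629 CPM in S3 and S4 and 310 to 355 CPM in Sirt6-KD. Of 6 tested, 4 were called lower, beside 10.7% of all genes. They were Cdkn1a (p21, -1.75, adjusted p = 0.00217 by edgeR), Cdkn1c (p57, -2.64, adjusted p = 0.0115), Cdkn2a (-1.09, adjusted p = 0.0160) and Cdkn2b (p15, -1.32, adjusted p = 0.00435). Cdkn1b stood at 68.3, 66.5, 153 and 72.2 CPM in S1 to S4 and at 90 to 133 CPM in Sirt6-KD. S1, S2 and S4 thus lay below and S3 above every Sirt6-KD library, which is not the order of the members. Cdkn1b (p27; 0.35, adjusted p = 0.381) and Cdkn2c (p18; -0.14, adjusted p = 0.827) were not called. Cdkn1a stood at 634, 743, 382 and 445 CPM in S1 to S4 and at 141 to 208 CPM in Sirt6-KD, and so was highest in the libraries where the members were lowest.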

How the data were processed

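RNA-seq libraries of 4 Sirt6-Ctrl and 4 Sirt6-KD cultures were analysed. The authors deposited raw counts per gene and per ERCC spike-in in 32975 rows. The submitters' processing notes name Trimmomatic 0.36, STAR 2.5.2b, featureCounts of Subread 1.5.2, DESeq2 and the Rnor_6.0 build, and the strand setting of counting is not given in the sources used here. A second table deposited by the authors holds a signal per library (raw counts divided by 1 size factor), gene names, and their own comparison as log2 fold changes and p-values. The gene names of that deposited table were used, and its log2 fold changes and p-values were not. Its 13612 rows have 8 counts that sum to at least 81.

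Rows were filtered with the default filterByExpr, leaving 13313 rows with 63 spike-ins among them, and normalized by TMM. They were tested with edgeR 4.0.16 in R 4.3.3 (glmQLFit and glmQLFTest, two-sided, p-values adjusted by Benjamini-Hochberg over the 13313 rows). A call needed a fold change over 1.5 and an adjusted p under 0.05. Levels are normalized CPM with the SD over libraries, and are not per length, so genes were not compared with each other. Differences per library are of log2(CPM + 0.5). Whether cultures of a group came from separate rats is not labelled per library, so p-values measure the spread between these libraries. A floor of 3 reads equals 0.0727 to 0.0928 CPM and covers counting error only, since reads carry no molecular identifiers.

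The genes named are the members, Sirt6, the called genes of the other lists (up to 6 per list and direction, by smallest p) and each cyclin-dependent kinase inhibitor tested. Members and lists were chosen with earlier results of these data known, so no test over a list was made. Alternatives were DESeq2 1.42.0, limma-voom (limma 3.58.1), other scalings and filters, and fits without 1 or 2 control libraries or 1 knockdown library. Promoters are from RefSeq on GRCr8, and of the 40 members 16 overlap the span of another gene there. For 9 the other gene is protein-coding, namely for Anln, Aurka, Cdc25c, Foxm1, Kif11, Kif20a, Kif4a, Nusap1 and Plk1.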

Additional observations from a re-analysis of the deposited data

Results flagged for a closer look

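In 78 groups of 4 libraries (39 members in Sirt6-Ctrl and in Sirt6-KD), the highest or lowest library was compared with its neighbour, as the gap between them divided by the range of the group, and held to Dixon's 95% critical value. Chance alone passes about 1 in 20 groups, and 3 of the 78 passed. For Cdc20, S7 was the lowest Sirt6-KD library, with 5.97 CPM against 9.53 to 9.95 CPM (ratio 0.895). For Nuf2, S4 was the highest Sirt6-Ctrl library, with 10.1 CPM against 2.5 to 3.59 CPM (ratio 0.856). For Kif4a, S8 was the highest Sirt6-KD library, with 8.70 CPM against 4.93 to 5.45 CPM (ratio 0.862).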

How the results depend on the processing

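No paired analysis was possible because nothing in the labels or column names tells which control and knockdown libraries share a rat. The number of members called higher was 4 with all libraries (8.02% of all genes). It was also 4 with RLE or upper quartile factors, with no filter or one of 1 CPM, with spike-in rows removed and with no fold change threshold (5.75% to 9.11%). It was 7 with DESeq2 (8.56% of all genes), 11 with limma-voom (12%) and 24 without S3 and S4 (17.6%). It was 0 with spike-in scaling (0.151%) and 0 when edgeR's glmTreat tested against a fold change of 1.5 (0.694%). With single libraries left out it lay between 1 and 16 (3.28% to 12.5%). The number called lower was 0 to 1 with single libraries left out, the 1 being Cdca8 without S3 (14.1% of all genes). The median fold change of the members on the log2 scale was 0.98 with all libraries, 0.36 without S1 and S2 (5 called higher, 5.71% of all genes) and 1.87 without S3 and S4. The median log2 level of the members, as a difference from the group mean, had an SD between libraries of 0.65, pooled over both groups. That SD is a spread of levels, mostly among the controls, and not the error of the median fold change. Other G2 and mitosis genes called higher numbered 5 of 71 (8.02% of all genes). They numbered 10 with DESeq2 (8.56%), 12 with limma-voom (12%) and 32 without S3 and S4 (17.6%). They numbered 0 with spike-in scaling (0.151%), 0 with glmTreat (0.694%), and 1 to 12 with single libraries left out (3.28% to 12.5%). Those called lower numbered 2 (10.7% of all genes), and 2 to 3 with single libraries left out. They numbered 0 under spike-in scaling and 0 under glmTreat, where 4 and 185 of 13250 genes were called lower. The sign of the log2 fold change turned for Aurka (0.54 with spike-in scaling, 0.02 without S3 and S4), Cdc25c (0.46) and Cdca8 (0.49) with spike-in scaling, Cdc20 (-0.01), Kif20a (-0.11) and Ndc80 (-0.03) without S1 and S2, and Dlgap5 without S4 (-0.03 to 0.32 with single libraries left out). The cause was not tested. Of the single-member values under all alternatives, 705 kept direction and side of the threshold, 46 passed it newly, 21 lost it and 8 turned sign. In S2, 9 members had 10 reads or fewer, where counting error is large. Its depth was 38506289 reads, while S3, with 31994838 reads, had 0 such members.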
